A study of Homo sapiens with 4 samples.

Results

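Molecular chaperones of the heat shock families were examined in Huh7, a cell line from a human hepatocellular carcinoma, with and without a guide against METTL16, an RNA m6A methyltransferase. Members were taken by gene symbol: those beginning with HSPA, HSPB, HSPD, HSPE, HSPH or HSP9, or with DNAJA, DNAJB or DNAJC and a number, without HSPA5, HSP90B1 and DNAJB9 of the endoplasmic reticulum. This gave 72 of the 18806 genes in the table, namely 28 DNAJC, 12 DNAJB, 12 HSPA, 8 HSPB, 4 DNAJA, 3 HSPD and HSPE, 2 HSP90 and 1 HSPH gene, and 2 (HSPBAP1 and HSPBP1) whose symbols begin like those of the small heat shock proteins but which encode partner proteins. The cells came from 1 Huh7 clone that stably expressed Cas9, were transduced with a lentiviral guide and were selected with hygromycin B. There were 2 libraries with a non-targeting guide (sgNS, labelled wild type) and 2 with a METTL16 guide (METTL16 KO, labelled a knockdown), and the study's methods call the 2 libraries of a group biological replicates, without saying whether they came from separate transductions.

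HSP70 proteins, encoded by HSPA genes, bind exposed hydrophobic stretches of unfolded proteins and release them in cycles of ATP hydrolysis. J proteins, encoded by DNAJ genes, bring substrates to HSP70 and stimulate the ATPase, and exchange factors such as HSPH1 then release the nucleotide. HSP90 acts late on clients such as kinases and steroid receptors, small heat shock proteins hold unfolded chains without ATP, and HSPD1 with HSPE1 forms the folding chamber of the mitochondrial matrix. Under proteotoxic stress the factor HSF1 binds heat shock elements, inverted repeats of the unit GAA separated by a pair of bases, and induces part of these genes, while others are made constitutively in liver and in hepatoma cells.

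Heat shock elements were looked for in RefSeq promoter windows of GRCh38.p14, from 250 bases before to 50 bases after a start site, since they are the regulatory sequence by which part of the family is known. Windows were found for 64 of the 72 members. The 3-unit element GAANNTTCNNGAA, or TTCNNGAANNTTC, which is its form on the other strand, was present in 7 of 86 windows of members (8.14%) and in 172 of all 35116 windows (0.490%). The 7 members were DNAJA1, DNAJB6, HSP90AA1, HSP90AB1, HSPA6, HSPA8 and HSPD1. The stretches are shown 5′ to 3′ on the strand of the gene, with the match in capitals, because the genes below that carry the same element did not all change in the same direction. Both matches of HSPD1 overlap each other.
DNAJA1 (chr9:33025268-33025296, plus strand): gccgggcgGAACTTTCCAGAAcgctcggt
HSPA8, first match (chr11:123062346-123062374, minus strand): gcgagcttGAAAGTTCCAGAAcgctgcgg
HSPA8, second match (chr11:123062171-123062199, minus strand): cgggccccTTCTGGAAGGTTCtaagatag
HSP90AA1 (chr14:102087112-102087140, minus strand): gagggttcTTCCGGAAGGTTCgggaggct
HSP90AB1, first match (chr6:44247770-44247798, plus strand): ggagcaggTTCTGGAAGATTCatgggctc
HSP90AB1, second match (chr6:44247823-44247851, plus strand): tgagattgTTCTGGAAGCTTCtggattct
DNAJB6 (chr7:157336865-157336893, plus strand): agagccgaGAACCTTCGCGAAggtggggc
HSPD1, first match (chr2:197500062-197500090, minus strand): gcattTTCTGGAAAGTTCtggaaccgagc
HSPD1, second match (chr2:197500060-197500088, minus strand): attttctgGAAAGTTCTGGAAccgagcga
HSPA6 (chr1:161524458-161524486, plus strand): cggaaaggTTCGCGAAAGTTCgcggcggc

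The shorter element of 2 units, GAANNTTC or TTCNNGAA, is contained in the longer one and occurred in 22 of 86 windows of members (25.6%, from 21 members) and in 13.5% of all windows. It is shown for HSPB1, HSPA1A and DNAJB1, which had no 3-unit match and are textbook members. The same is true of HSPA9, whose match is not shown. The match of HSPA1A lies between HSPA1A and HSPA1L, which are transcribed away from each other, and was also found in the window of HSPA1L on the minus strand. DNAJB1 had matches in the windows of different start sites, and those of the upstream start and of the downstream start are shown.
HSPB1 (chr7:76302481-76302509, plus strand): cttaacgagaGAAGGTTCcagatgagggc
HSPA1A (chr6:31815427-31815455, plus strand): gaaaaccctgGAATATTCccgacctggca
DNAJB1, first match (chr19:14518456-14518484, minus strand): gggcggggcgGAAGGTTCtggagggggct
DNAJB1, second match (chr19:14518426-14518454, minus strand): gcgggctctgGAAGCTTCcgccggacggg
DNAJB1, match at the downstream start (chr19:14517918-14517946, minus strand): cgctcggccaGAAGCTTCtagcatgtctg

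The authors deposited TPM values, which give each gene per length of transcript as a share of 1000000 in each library and keep no read counts, so that neither depth nor counting error could be derived. Genes with a mean of at least 1 TPM over the 4 libraries (11971 genes) were tested on log2(TPM + 0.1) with limma, so that a log2 fold change below is a difference on this scale, and one of low genes is understated. The targeted gene METTL16 was at 26.3 and 25.1 TPM in the sgNS pair, against 17.6 and 18.8 TPM in the KO pair (log2 fold change -0.50, adjusted p = 2.4e-05), and the transcript of an edited gene can persist. All 11 hepatocyte and hepatoma markers, ALB and AFP among them, were above the test's minimum. The leukocyte, endothelial and stellate lists were low, with PTPRC at a mean of 0.22 TPM in sgNS, VWF at 0.010 and KDR and MS4A1 at 0, but of the 6 leukocyte markers 3 were tested, of which CD68 rose from a mean of 3.06 to 8.72 TPM and CD14 from 1.06 to 1.64 TPM, while LYZ fell from 1532 to 917 TPM. With LYZ as nearly all of it, the sum of the 6 was between 1515 and 1557 TPM in sgNS and between 920 and 934 TPM in METTL16 KO. Of the endothelial list only PECAM1 was tested, and it fell from a mean of 4.94 to 2.9 TPM (log2 fold change -0.75). Of the stellate list only PDGFRB was tested, and it fell from a mean of 1.5 to 0.905 TPM (log2 fold change -0.67). Its METTL16 KO mean was under the minimum, so that it was tested only by virtue of its level in sgNS. The sum of the 5 genes of this list went the other way, from a mean of 2.325 TPM in sgNS to 2.87 TPM in METTL16 KO. The part of other cells in the results was not tested, and in bulk RNA fewer cells with a transcript cannot be told apart from less of it per cell. The 2 libraries of a group had a Pearson's r of 0.997 across the genes tested in either group.

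Among the members, several J proteins and the exchange factor HSPH1 were higher in METTL16 KO than in sgNS and the most abundant small heat shock protein, HSPB1, was lower, while the mitochondrial chaperonin genes did not pass the test in either direction. Of the 72 members 56 were tested, of which 35 rose, 10 fell and 11 did not pass an adjusted p of 0.05. Among all genes tested, 50.1% rose and 25.6% fell by this call, against 62.5% and 17.9% of the members. The median log2 fold change was 0.21 over the members tested and 0.16 over all genes tested. With median-ratio scaling, in which every library is divided by its typical ratio to the geometric mean of all 4, the median over all genes went to -0.0016 and that of the members to 0.047. Then 24 of the 56 members passed as higher and 17 as lower, against 36.4% and 36.5% of all genes. Quantile normalization gave 25 higher and 16 lower members of the 56, against 36.9% and 35.5% of all genes. Among the called members, the share of higher genes thus went from 77.8% to 58.5% with median-ratio scaling and to 61.0% with quantile normalization. Among all called genes it went from 66.2% to 49.9% and 51.0%, respectively. With a change of at least 0.5 on the log2 scale besides the adjusted p, 11 of the 56 members rose and 4 fell. Among all genes tested, 24% rose and 11.5% fell by this measure. Of the 56 members, 1 rose and 1 fell with a change of at least 1 at an unadjusted p under 0.01. Among all genes tested, 7.69% rose and 3.75% fell by that measure. The member that rose was DNAJC6, which reached the test's minimum only through its METTL16 KO level, and the member that fell was DNAJC25-GNG10. The smallest p of an exact permutation test (two-sided) is 0.333 for 2 libraries per group, so that the test draws on the spread limma shares between genes.

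**Figure D1:**
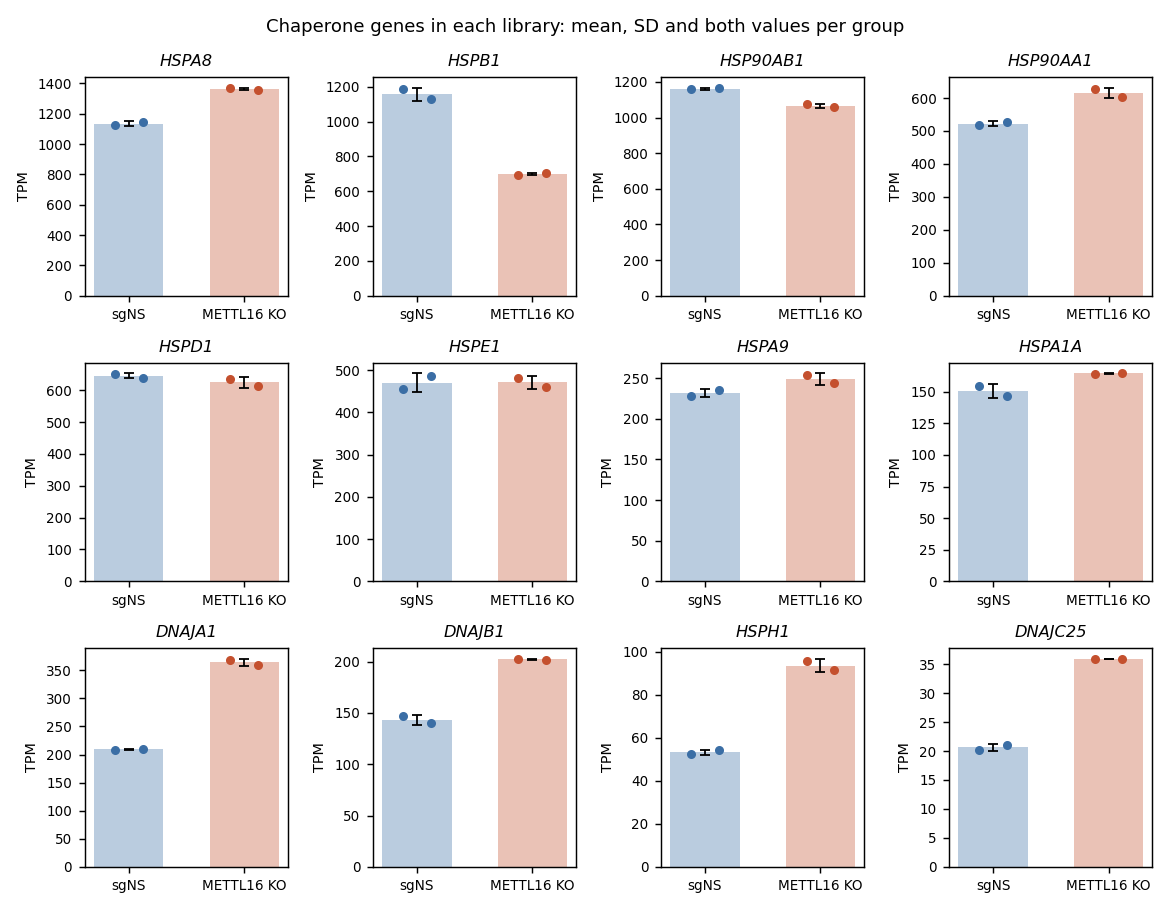
TPM of 12 chaperone genes in the sgNS (blue) and METTL16 KO (red) libraries, on axes that start at 0. Bars are means, error bars SD and points the 2 libraries of each group: HSPB1 fell from above 1100 TPM to about 700 TPM, DNAJA1, HSPH1 and DNAJC25 rose, and the points of HSPE1 overlap.

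HSPB1, the small heat shock protein also known as HSP27, lies on chromosome 7 of GRCh38 (chr7:76302673-76304292). It was listed at 1185 and 1132 TPM in the sgNS pair, against 694 and 702 TPM in the KO pair. It was the second most abundant member in sgNS libraries with its mean of 1158 ± 37.7 TPM (SD, n = 2), close behind HSP90AB1, and in METTL16 KO both of its values lay far below. Its log2 fold change was -0.73 (standard error, SE, 0.030, adjusted p = 4.5e-09), or -0.90 after median-ratio scaling. A share of 5.62% of its stretches of read length was also present in other genes, most with the pseudogene HSPB1P1. HSPB8, which works with BAG3 in the autophagy of misfolded proteins, went the other way, from 34.9 and 33.3 TPM to 50.1 and 50.5 TPM (log2 fold change 0.56, adjusted p = 1.6e-06). HSPB11 had 49.1 and 51.9 TPM in sgNS against 76.2 and 84.1 TPM in METTL16 KO and rose by 0.66 on the log2 scale, but it encodes a protein of intraflagellar transport, IFT25 in the current nomenclature. HSPB6 was listed at 3.83 and 3.51 TPM in the sgNS pair, against 4.02 and 2.92 TPM in the KO pair, with overlapping groups and a 95% interval of the log2 fold change from -0.44 to 0.25. The 4 HSPB genes tested thus comprised 2 that rose, 1 that fell and 1 that did not pass. Of all genes tested, 50.1% rose and 25.6% fell. As HSPB1 makes up most of the family's transcripts, the summed TPM of the 8 HSPB genes went from 1247 ± 37.0 in sgNS to 833 ± 10.7 in METTL16 KO (SD, n = 2 per group).

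The HSP90 pair split. HSP90AA1, the stress-inducible form, was listed at 518 and 527 TPM in the sgNS pair, against 627 and 604 TPM in the KO pair (log2 fold change 0.24, adjusted p = 3.6e-05). It did not pass after median-ratio scaling, at 0.070 (adjusted p = 0.064 in limma), but did with quantile normalization, at 0.15 (adjusted p = 0.0014). HSP90AB1, the constitutive form, was at 1158 and 1167 TPM against 1074 and 1058 TPM and fell by 0.12 on the log2 scale (adjusted p = 0.0011), or by 0.29 after median-ratio scaling. The ratio of HSP90AA1 to HSP90AB1 within a library, which no scaling factor changes, was 0.447 and 0.452 in sgNS and 0.584 and 0.570 in METTL16 KO. Their summed TPM was 1685 ± 12.8 in sgNS and 1682 ± 27.4 in METTL16 KO (SD, n = 2 per group), a difference within the spread between replicates, but the log2 ratio of the sums was -0.0026 on TPM and -0.17 after median-ratio scaling. Both carry the 3-unit element shown above.

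Of the HSP70 genes, HSPA8 encodes the constitutive cytosolic form and was the most abundant of all members over the 4 libraries. It was listed at 1125 and 1146 TPM in the sgNS pair, against 1371 and 1360 TPM in the KO pair, with both METTL16 KO libraries above both sgNS libraries. This came to a log2 fold change of 0.27 (SE 0.026, adjusted p = 3.5e-06), and 0.10 after median-ratio scaling, where it also passed. HSPA14, which acts at the ribosome on nascent chains, rose by 0.46 on the log2 scale, from 69.7 and 73.8 TPM to 98.7 and 98.0 TPM (adjusted p = 3.1e-06). HSPA4, an exchange factor of the HSP110 type, had a log2 fold change of 0.25, and HSPA13, a microsome-associated form, had 0.24. Both passed on TPM but not after median-ratio scaling, at 0.084 and 0.071.

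HSPA1A, the classical heat-inducible HSP70, differed little. It was at 155 and 147 TPM in the sgNS pair, against 164 and 165 TPM in the KO pair, and its log2 fold change of 0.13 (adjusted p = 0.011) turned to -0.038 after median-ratio scaling and did not pass there. Of its stretches of read length, 72.4% also occur in other genes, most with its near-identical neighbour HSPA1B, which was not analysed here. Its value may thus hold reads of both HSPA1A and HSPA1B. HSPA9, the mitochondrial HSP70 mortalin, was similar, with 229 and 235 TPM against 254 and 244 TPM (log2 fold change 0.10, adjusted p = 0.022), and its change turned to -0.063 after median-ratio scaling. HSPA4L, a relative of HSPA4, fell from 16.4 and 17.9 TPM to 15.5 and 14.1 TPM, by 0.21 on the log2 scale (adjusted p = 0.024). HSPA2 and HSPA1L, known from testis, did not pass, and their 95% intervals of the log2 fold change ran from -0.059 to 0.25 and from -0.48 to 0.16. HSPA6, strictly heat-inducible in textbook accounts, had 1.31 and 1.14 TPM in the sgNS pair and 0.78 and 0.56 TPM in the KO pair. Its mean of 0.948 TPM was just under the minimum, and 27.5% of its stretches occur in other genes, most with HSPA7. In all, of the 9 HSPA genes tested 6 rose (66.7%, against 50.1% of all genes), 1 fell (11.1%, against 25.6%) and 2 did not pass. After median-ratio scaling 2 were higher, 1 was lower and 6 did not pass, where 36.4% of all genes were higher and 36.5% lower. The family's median log2 fold change was 0.13 on TPM and -0.038 after median-ratio scaling.

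HSPH1, the inducible exchange factor also called HSP105, had one of the largest rises. It went from 52.5 and 54.1 TPM in the sgNS pair to 95.8 and 91.3 TPM in the KO pair. The log2 fold change was 0.81 (SE 0.045, adjusted p = 4.5e-08), which is a 1.75-fold difference, and 0.65 after median-ratio scaling. No match to either heat shock element was found in its promoter window, which says only that these letters are not in that window. HSPBP1, another exchange factor of HSP70, had 35.4 and 34.7 TPM against 34.3 and 33.6 TPM and a log2 fold change of -0.046 (adjusted p = 0.42), with a 95% interval from -0.16 to 0.065, although its groups did not overlap. Both alternative scalings called it lower, at -0.21 (median-ratio) and -0.20 (quantile). HSPBAP1, which encodes a protein that binds HSPB1, rose by 0.94 on the log2 scale, from 8.06 and 7.72 TPM to 15.2 and 15.3 TPM (adjusted p = 6.9e-07).

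HSPD1 and HSPE1 are neighbours on chromosome 2 that are transcribed away from each other, HSPD1 from chr2:197486584-197500274 and HSPE1 from chr2:197500379-197503449. HSPD1 was listed at 652 and 640 TPM in the sgNS pair, against 637 and 614 TPM in the KO pair, and HSPE1 at 454 and 486 TPM against 482 and 460 TPM. Neither passed, with 95% intervals of the log2 fold change from -0.11 to 0.021 for HSPD1 and from -0.082 to 0.089 for HSPE1. After median-ratio scaling both were lower than in sgNS and passed, at -0.21 and -0.16. HSPE1 shares 24.0% of its stretches of read length with other genes, most with the read-through gene HSPE1-MOB4, which was at 0.58 TPM or less in each library.

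**Figure D2:**
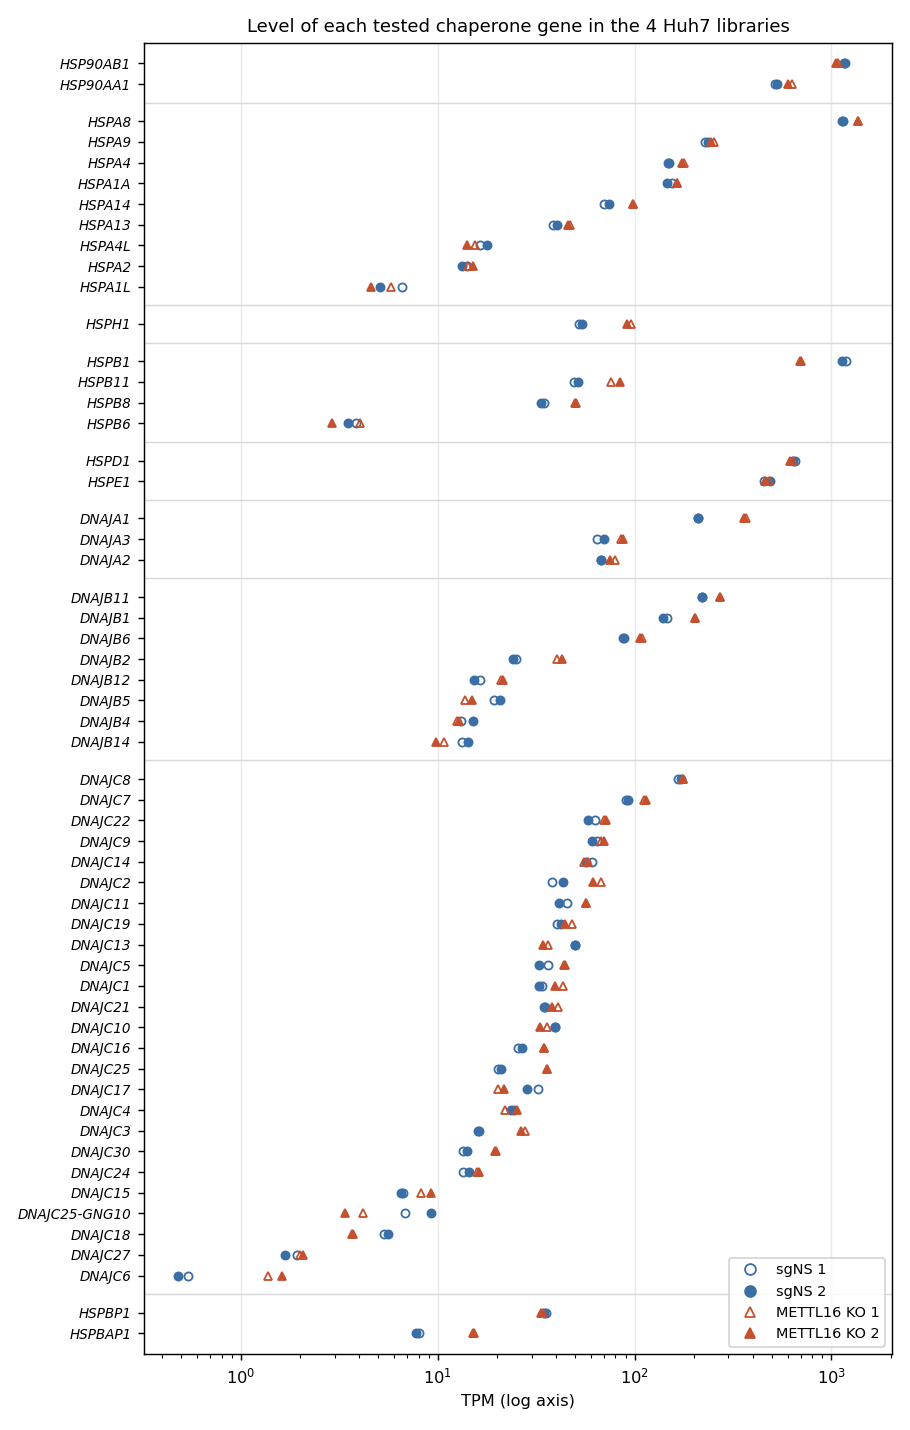
TPM on a log axis of the 56 members tested, grouped by family and ordered by mean level, with circles for the 2 sgNS and triangles for the 2 METTL16 KO libraries. Levels run from below 1 TPM for DNAJC6 in sgNS to 1371 TPM for HSPA8 in METTL16 KO, and the groups of 51 genes do not overlap.

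The groups did not overlap in 38 members that were higher and in 13 that were lower in METTL16 KO, while 56.8% and 30.7% of all genes tested stood apart in these directions. The 10 most abundant members held 75.9% of the summed TPM of all members in sgNS and 72.8% in METTL16 KO. All 72 members summed to 7766 and 7779 TPM in sgNS and to 8211 and 8084 TPM in METTL16 KO, a log2 ratio of 0.068 that turned to -0.098 after median-ratio scaling. The J proteins alone summed to 1812 ± 0.78 TPM in sgNS and 2257 ± 16.6 TPM in METTL16 KO (SD, n = 2 per group), whereas the members with HSP symbols had 5961 ± 9.93 and 5891 ± 72.9 TPM. The log2 ratio was 0.32 for the J protein sum and -0.017 for the HSP sum, and after median-ratio scaling 0.15 and -0.18. Across the 56 members, the level and the log2 fold change had a Spearman's rho of 0.098, as a description of genes that share the same 4 libraries.

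Of the J proteins of class A, which resemble bacterial DnaJ most closely, all 3 tested rose, where 50.1% of all genes did. DNAJA1, the main cytosolic one, was listed at 209 and 210 TPM in the sgNS pair, against 369 and 360 TPM in the KO pair. These values gave a log2 fold change of 0.80 (SE 0.032, adjusted p = 4.0e-09), a 1.74-fold rise, and 0.63 after median-ratio scaling, and no other member that rose had a lower p. DNAJA1 carries the 3-unit element shown above, with its first base at position 4 counted from the start site as 1. Relative to HSPA8, its level was 0.186 and 0.183 in sgNS and 0.269 and 0.264 in METTL16 KO. The transcript of the J protein was thus higher relative to that of its HSP70 partner in both METTL16 KO libraries, and protein was not measured. DNAJA3, the mitochondrial class A protein, had 64.1 and 69.8 TPM against 85.3 and 87.0 TPM (log2 fold change 0.36), and DNAJA2 had 67.4 and 67.6 TPM against 79.4 and 75.4 TPM (0.20, and 0.030 without a pass after median-ratio scaling). DNAJA4 was at 1.20 TPM or less in each library and was not tested.

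Class B held members that rose, members that fell and 1 that did not pass. DNAJB1, the HSP40 that serves HSPA1A and HSPA8, was at 147 and 140 TPM in the sgNS pair, against 203 and 202 TPM in the KO pair (log2 fold change 0.50, adjusted p = 4.8e-07). DNAJB2, which carries ubiquitin-binding motifs, rose by 0.76 on the log2 scale, from 25.0 and 24.1 TPM to 40.5 and 42.7 TPM (adjusted p = 3.4e-07). Both stayed higher after median-ratio scaling, at 0.33 and 0.59. DNAJB11 of the endoplasmic reticulum, the most abundant of the class, had 219 and 220 TPM against 272 and 273 TPM, a log2 fold change of 0.31. DNAJB6, which suppresses aggregation, and DNAJB12, a membrane protein of the endoplasmic reticulum, had log2 fold changes of 0.30 and 0.43. In contrast, DNAJB5 fell from 19.3 and 20.7 TPM to 13.7 and 14.9 TPM, by 0.48 on the log2 scale (adjusted p = 9.4e-05), and DNAJB14, the close relative of DNAJB12, from 13.3 and 14.2 TPM to 10.8 and 9.83 TPM, by 0.41 (adjusted p = 5.9e-04). DNAJB4 was at 13.1 and 15.1 TPM against 12.6 and 12.8 TPM and did not pass (log2 fold change -0.15, 95% interval from -0.33 to 0.026), but after median-ratio scaling it was called lower, at -0.32. In class B, 5 of 8 genes tested rose (62.5%, against 50.1% of all genes) and 2 fell (25%, against 25.6%). The median log2 fold change of the class was 0.30, or 0.14 after median-ratio scaling.

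Class C comprises J proteins with dedicated tasks. Of its 25 tested members 16 rose (64%, against 50.1% of all genes), 5 fell (20%, against 25.6%) and 4 did not pass. After median-ratio scaling 11 were higher and 8 lower, against 36.4% and 36.5% of all genes. The class's median log2 fold change went from 0.20 to 0.035. DNAJC3, an inhibitor of the eIF2-alpha kinases that also works as a chaperone in the endoplasmic reticulum, had a mean of 16.12 ± 0.021 TPM in sgNS and 27.8 and 26.4 TPM in METTL16 KO (log2 fold change 0.75, adjusted p = 7.7e-07). DNAJC2, the partner of HSPA14 in the ribosome-associated complex, rose by 0.66, from 37.9 and 43.4 TPM to 67.6 and 61.2 TPM (adjusted p = 6.4e-06). Both genes of that complex thus rose, and both were also called higher after median-ratio scaling, at 0.50 for DNAJC2 and 0.29 for HSPA14. DNAJC30 of the mitochondrion was at 13.4 and 14.1 TPM against 19.8 and 19.5 TPM (log2 fold change 0.51). DNAJC6, the auxilin of clathrin uncoating known from neurons, was at 0.54 and 0.48 TPM in the sgNS pair, against 1.37 and 1.62 TPM in the KO pair, with a log2 fold change of 1.38 (adjusted p = 4.8e-04). Its mean over the 4 libraries was 1.00 TPM, so that it was tested only by virtue of its level in METTL16 KO and had to differ. With quantile normalization its log2 fold change was 0.78.

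DNAJC25, which encodes a membrane J protein, overlaps the read-through gene DNAJC25-GNG10 on chromosome 9, and the 2 values went in opposite directions. DNAJC25 had 20.2 and 21.0 TPM in sgNS and 35.9 TPM in both METTL16 KO libraries, a log2 fold change of 0.80 (adjusted p = 2.3e-07). DNAJC25-GNG10 had 6.85 and 9.30 TPM against 4.20 and 3.37 TPM and fell by 1.07 on the log2 scale (adjusted p = 7.2e-05). Of the stretches of read length of the read-through transcript, 85.4% occur in other genes, most with GNG10. Of those of DNAJC25, 11.9% occur in other genes, most with the read-through gene. How reads were split between the read-through gene and either of these genes is thus uncertain. The sum of DNAJC25 and the read-through gene, without GNG10, went from 28.7 ± 2.29 to 39.7 ± 0.52 TPM (SD, n = 2 per group). The fit on this sum gave a log2 fold change of 0.47.

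Besides the read-through gene, the members of class C that fell were DNAJC18, DNAJC17, DNAJC13 and DNAJC10. DNAJC13 serves endosomal sorting and went from 49.7 and 49.6 TPM to 36.2 and 34.4 TPM (log2 fold change -0.49, adjusted p = 4.8e-06). DNAJC17, a nuclear protein linked to splicing, went from 32.4 and 28.6 TPM to 20.3 and 21.6 TPM, a change of -0.53 (adjusted p = 3.4e-05). DNAJC18 was at 5.32 and 5.61 TPM against 3.73 and 3.67 TPM, a change of -0.55 (adjusted p = 8.1e-04). DNAJC10, a reductase of the endoplasmic reticulum that breaks disulphide bonds, changed less, by -0.20, from 39.5 and 39.7 TPM to 35.8 and 33.3 TPM (adjusted p = 0.0061). These 4 genes were lower after median-ratio scaling too, at -0.36 to -0.71.

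The other members of class C that passed on TPM had log2 fold changes between 0.14 and 0.40. DNAJC16, DNAJC15, DNAJC11, DNAJC5, DNAJC1 and DNAJC7 were higher on TPM and after median-ratio scaling. DNAJC22, DNAJC24, DNAJC21, DNAJC19 and DNAJC9 passed on TPM only, and DNAJC19 and DNAJC9 turned to -0.0062 and -0.027 after median-ratio scaling. DNAJC8, a splicing-associated protein and the most abundant of the class, was at 167 and 172 TPM against 177 and 175 TPM (log2 fold change 0.057, 95% interval from -0.021 to 0.13) and turned to -0.11 after median-ratio scaling. DNAJC4, DNAJC14 and DNAJC27 did not pass on TPM either, with log2 fold changes of -0.029, -0.051 and 0.16. After median-ratio scaling DNAJC8, DNAJC4 and DNAJC14 passed as lower. DNAJC14 shares 24.8% of its stretches of read length with other genes.

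**Figure D3:**
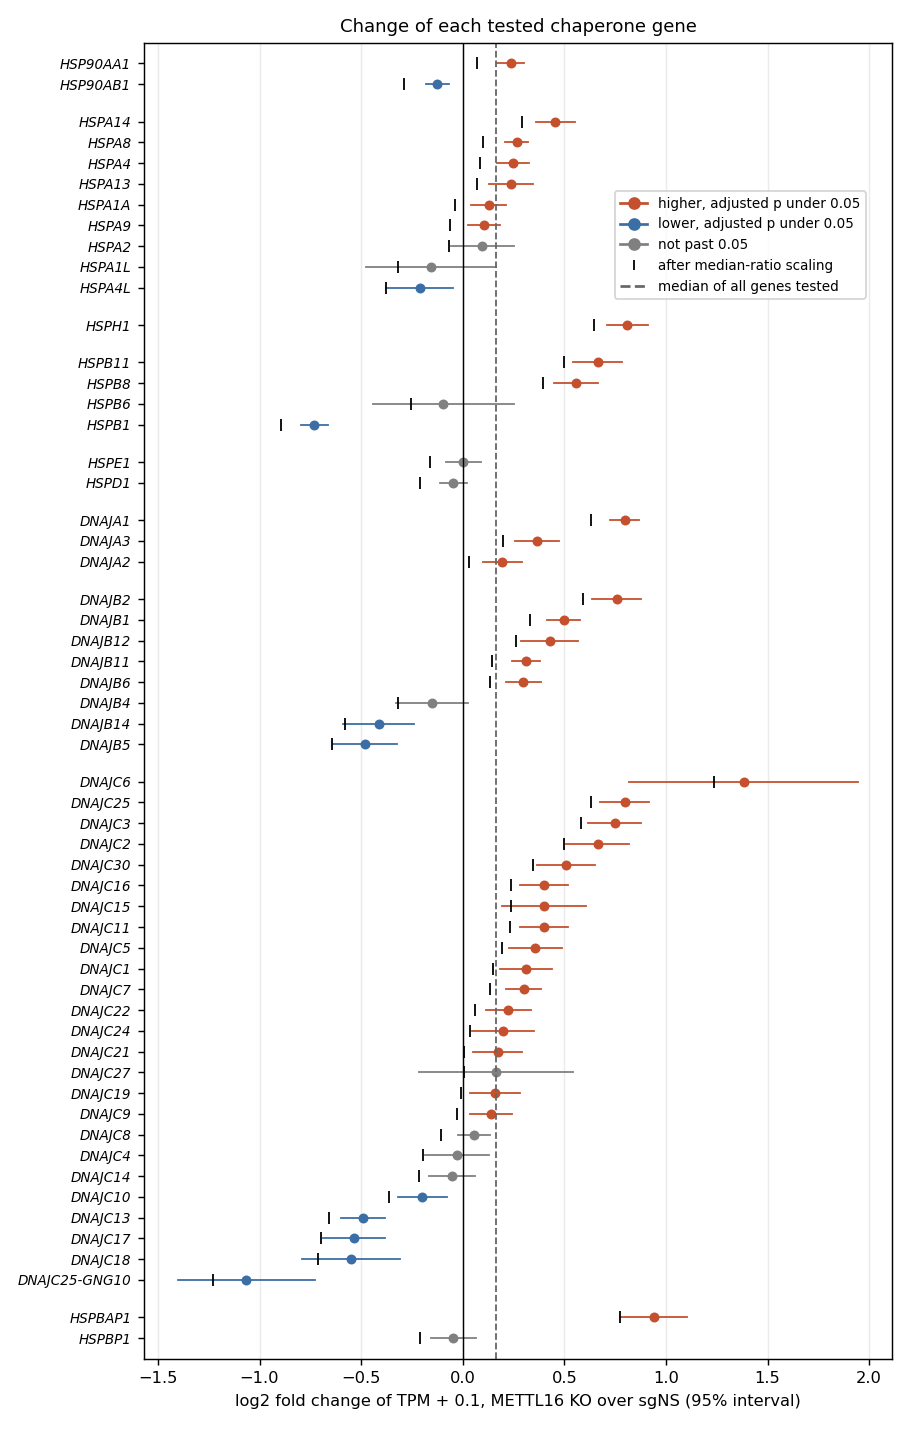
Log2 fold change of TPM + 0.1 in METTL16 KO over sgNS for the 56 members tested, by family, with the 95% interval from limma as a line. Red and blue points passed an adjusted p of 0.05 as higher (35) and lower (10), black ticks give the value after median-ratio scaling, and the dashed line marks the median of all genes, at 0.16.

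In a grouping by place in the cell made after the values were seen, 10 members were assigned to the endoplasmic reticulum. Of these 7 rose and 3 fell, where 50.1% and 25.6% of all genes did. The rises were those of DNAJC25, DNAJC3, DNAJB12, DNAJC16, DNAJC1, DNAJB11 and HSPA13, and the falls those of DNAJC18, DNAJB14 and DNAJC10. After median-ratio scaling 6 of the 10 were higher, 3 were lower and 1 did not pass, where 36.4% of all genes were higher and 36.5% lower. Of the 8 mitochondrial members 6 rose, none fell and 2, the chaperonin genes, did not pass on TPM, but after median-ratio scaling 4 were higher and the 2 chaperonin genes were lower. By the limma test at an unadjusted p under 0.05 no mitochondrial member was lower on TPM either. The summed TPM of the mitochondrial members was 1520 ± 22.2 in sgNS and 1563 ± 40.5 in METTL16 KO (SD, n = 2 per group), with a log2 ratio of 0.041 that turned to -0.12 after median-ratio scaling.

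With respect to the heat shock element, of the 6 tested members with the 3-unit match 4 rose (DNAJA1, DNAJB6, HSP90AA1 and HSPA8), 1 fell (HSP90AB1) and 1 did not pass (HSPD1), where 50.1% of all genes rose and 25.6% fell. After median-ratio scaling 3 were higher, HSP90AA1 no longer among them, and 2 lower, HSPD1 now among them. Their log2 fold changes ran from -0.12 to 0.80, with a median of 0.25 against 0.21 for all members tested. Of the 17 tested members with the 2-unit match, which include these 6, 10 rose (58.8%), 3 fell (17.6%) and 4 did not pass, and their median was 0.13. After median-ratio scaling 7 were higher and 5 lower, against 36.4% and 36.5% of all genes, and the median was -0.038.

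The remaining 16 members did not reach the minimum and stood at 1.31 TPM or less in each library. HSPB2 and DNAJC5G were listed at 0 in all 4 libraries. The others were DNAJA4, DNAJB3, DNAJB7, DNAJB8, DNAJB13, DNAJC5B, DNAJC12, HSPA6, HSPA12A, HSPA12B, HSPB3, HSPB7, HSPB9 and HSPE1-MOB4. Several of these genes are known from testis, muscle or brain rather than from liver.

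Of the heat shock factors and their binding proteins, 4 were tested. HSF1 was at 60.9 and 60.6 TPM in the sgNS pair, against 76.8 and 74.3 TPM in the KO pair (log2 fold change 0.31, adjusted p = 5.1e-05), while HSF2 was at 23.5 and 27.2 TPM against 21.6 and 22.3 TPM and fell by 0.20 (adjusted p = 0.024). HSBP1, which binds HSF1, and its relative HSBP1L1 rose by 0.34 and 0.47. The activity of HSF1 is set on its protein, which was not measured here. Of 14 further HSF1 target genes tested, 11 rose (78.6%, against 50.1% of all genes), 2 fell (14.3%, against 25.6%) and 1 did not pass, with a median log2 fold change of 0.27 beside 0.16 over all genes tested, and after median-ratio scaling 9 were higher and 2 lower, against 36.4% and 36.5% of all genes. ZFAND2A, a partner of the proteasome that is induced by heat and arsenite, rose from 99.4 and 97.1 TPM to 208 and 214 TPM (log2 fold change 1.10, adjusted p = 9.8e-10). CLU, the secreted chaperone clusterin, had 0.86 and AHSA1, the activator of the HSP90 ATPase, 0.57. BAG3, a further classical HSF1 target, had only 0.15 (adjusted p = 0.040) and -0.018 after median-ratio scaling.

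Of 15 HSP70 cochaperones that are not members, 9 rose (60%, against 50.1% of all genes), 5 fell (33.3%, against 25.6%) and 1 did not pass. The largest changes were those of TOMM34, a cytosolic import receptor that binds HSP70 and HSP90, at 0.81, of BAG1, an exchange factor, at 0.77, and of GRPEL1, the exchange factor of HSPA9, at 0.62. The largest fall, named after its values were seen, was that of BAG2, by 0.42 on the log2 scale (adjusted p = 9.0e-06). After median-ratio scaling 5 of these genes were higher and 6 lower, against 36.4% and 36.5% of all genes. The 25 HSP90 cochaperones went in both directions, with 11 that rose (44%), 9 that fell (36%) and a median log2 fold change of 0.036. After median-ratio scaling 9 of them were higher and 13 lower. AHSA2, a relative of AHSA1 that has the pseudogene symbol AHSA2P in RefSeq, rose by 1.08 and is counted among the 11. The immunophilin FKBP5 fell by 0.61 and FNIP2, an inhibitor of the HSP90 ATPase, by 0.57. Of the 15 genes of the cytosolic chaperonin and of prefoldin, which hands it actin and tubulin chains, 9 rose (60%) and 4 fell (26.7%) on TPM. After median-ratio scaling 4 of these 15 were higher and 5 lower. Their largest rises were in PFDN1, by 0.54, and PFDN5, by 0.46.

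**Figure D4:**
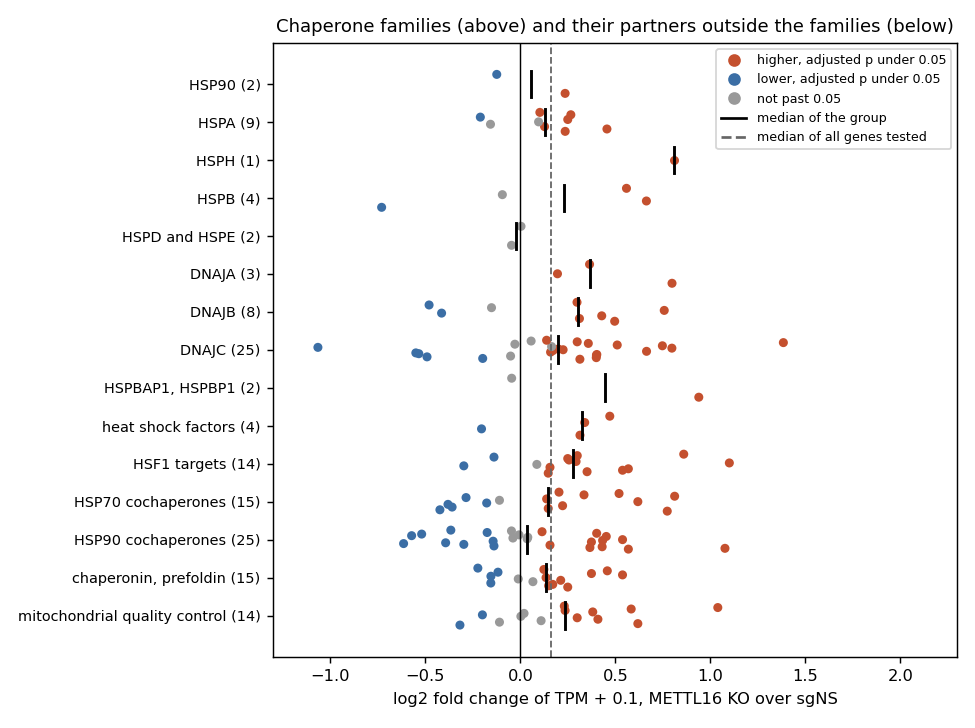
Log2 fold change of TPM + 0.1 in METTL16 KO over sgNS for each tested gene of the chaperone families and of the lists of factors, targets and cochaperones outside them, with the number tested in brackets. Red and blue points passed an adjusted p of 0.05 as higher and lower, black bars are medians and the dashed line is the median of all genes: DNAJA lies to its right, and the HSP90 cochaperones spread to both sides of 0.

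Of the endoplasmic reticulum chaperones that the selection left out, HSPA5, the HSP70 of that compartment, went from 513 and 505 TPM to 824 and 821 TPM (log2 fold change 0.69, adjusted p = 3.8e-09). HSP90B1, the HSP90 of that compartment, had 0.045 and did not pass, but turned to -0.12 and passed as lower after median-ratio scaling, and DNAJB9 had 0.22 on TPM and 0.058 without a pass after median-ratio scaling.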

How the data were processed

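According to the study's methods, libraries of Huh7 RNA were made with a stranded mRNA kit, while the labels also name depletion of ribosomal RNA. Per the labels and methods, the authors used Cutadapt for trimming, STAR for mapping to GRCh38 and RSEM for quantification, with versions and annotation not given in the sources used here. The values deposited by the authors, called RPKM in the methods, sum to 1000000 per library and were treated as TPM, rounded to 2 decimals. Depth is unknown.

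From these values, log2(TPM + 0.1) of 11971 genes with a mean of at least 1 TPM was fitted with limma 3.58.1 (lmFit, eBayes with trend, two-sided) in R 4.3.3, and p-values were adjusted by Benjamini-Hochberg over all of them. On simulated libraries of 11971 genes for METTL16 KO against sgNS, 96% of 100 genes changed by 1.5 on the log2 scale and 58% of 100 changed by 0.5 were called, with 2.53% false calls. No other gene was changed there, rises and falls were equally many, noise was independent and the libraries had no common shift. In the data 50.1% of genes rose and 25.6% fell, so that the 2.53% cannot be carried over to these calls. The members and lists were chosen with earlier results of these data known, and the grouping by place in the cell after the values were seen, so no set was tested. Named were members past an adjusted p of 0.05 with a log2 fold change of 0.5 or more in size, the 2 most abundant of each family and textbook members. Fold changes of further members were added after the values were seen. In each list up to 3 genes with the largest changes were eligible, besides genes needed for a role. Positions, promoter windows and starts are from RefSeq on GRCh38.p14. HSPB11 was matched as IFT25. Stretches of 101 bases, the read length of the study, of each member's longest coding transcript in GENCODE release 44 were searched in the transcripts of other genes, for 71 members. Alternatives were other pseudocounts (1 and 0.01), filters (all genes above 0, or a mean of 5 TPM), scalings (median-ratio and quantile), the replicate block, no trend, no moderation, thresholds, a narrower member list and each library left out. Figures were drawn with matplotlib 3.10.9.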

Additional observations from a re-analysis of the deposited data

How the results depend on the processing

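The sum of DNAJC25 and its read-through gene was added after the data were seen, and the other alternatives were planned. The counts of 35 higher and 10 lower members became 24 and 17 (median-ratio scaling), 25 and 16 (quantile normalization), 21 and 4 with the unmoderated linear model, 11 and 4 where the change also had to reach 0.5 on the log2 scale, and 1 and 1 where it had to reach 1 at an unadjusted p under 0.01 (7.69% and 3.75% of all genes). The members' median of 0.21 became 0.047 and 0.075 under these scalings. Both remove the shift of all genes by construction, the unmoderated model has fewer degrees of freedom, and the fold thresholds are stricter, while the cause of other differences was not tested. Leaving out 1 library in turn gave 29 to 34 higher and 8 to 11 lower members, medians from 0.21 to 0.23, and METTL16 from -0.54 to -0.45. A fit that used replicate numbers as a block gave 35 and 10, and no member's call changed, but same-numbered libraries deviated with a correlation of -0.044, so that the number pairs nothing. That fit has 1 residual degree of freedom.

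The direction of single members turned with median-ratio scaling for DNAJC19 (-0.0062), DNAJC8 (-0.11), DNAJC9 (-0.027), HSPA1A (-0.038), HSPA2 (-0.069), HSPA9 (-0.063) and HSPE1 (-0.16), and with quantile normalization for DNAJC27 (-0.13), DNAJC8 (-0.014), HSPA2 (-0.082) and HSPE1 (-0.043). With 1 library left out, values of both signs were seen for DNAJC14 (-0.11 to 0.0040, positive without sgNS replicate 1), DNAJC4 (-0.13 to 0.071, positive without sgNS replicate 1 or METTL16 KO replicate 1), HSPA1L (-0.34 to 0.025, positive without sgNS replicate 1 or METTL16 KO replicate 2), HSPB6 (-0.32 to 0.13, positive without METTL16 KO replicate 2) and HSPE1 (-0.046 to 0.053, negative without sgNS replicate 1 or METTL16 KO replicate 1). Of these, HSPA1A, HSPA9, DNAJC9 and DNAJC19 passed the test on TPM, and DNAJC4, DNAJC8, DNAJC14 and HSPE1 passed as lower with median-ratio scaling. Calls lost without 1 library were those of DNAJC19, DNAJC24 and HSPA9 (without sgNS replicate 1, HSPA9 at 0.081), DNAJC9 and HSPA4L (sgNS replicate 2), DNAJC9, DNAJC19, DNAJC21, DNAJC24, HSPA1A and HSPA9 (METTL16 KO replicate 1, HSPA9 at 0.073) and DNAJC9, DNAJC10, DNAJC24, HSPA1A and HSPA4L (METTL16 KO replicate 2, DNAJC10 at -0.14 and HSPA4L at -0.15), and DNAJB4 passed as lower without sgNS replicate 1 (-0.25). Without limma's trend 31 members were higher and 8 lower, and DNAJC9, DNAJC19, HSP90AB1, HSPA1A, HSPA4L and HSPA9 lost their calls, HSP90AB1 with an adjusted p of 0.055 at the same -0.12.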

Other observations

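The mitochondrial partners of the chaperones were read from a list of 14 tested genes. Of these 8 rose (57.1%, against 50.1% of all genes), 2 fell (14.3%, against 25.6%) and 4 did not pass. Their median log2 fold change was 0.23 beside 0.16 over all genes tested. After median-ratio scaling 6 were higher and 5 lower, against 36.4% and 36.5% of all genes. DNLZ, a zinc finger protein that keeps HSPA9 soluble, had 18.4 and 18.0 TPM in the sgNS pair and 38.1 and 37.0 TPM in the KO pair (log2 fold change 1.04, adjusted p = 3.1e-08 in limma). GRPEL1, the nucleotide exchange factor of HSPA9, and HTRA2, a protease of the intermembrane space, rose by 0.62 and 0.58. TRAP1, the mitochondrial HSP90, fell by 0.32 on the log2 scale. HSPA9 itself had a log2 fold change of 0.10.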
